A study of Homo sapiens with 24 samples.

Results

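The p53 target genes described here are 10 genes whose transcription p53 activates directly, MDM2, CDKN1A, BBC3, BAX, FAS, TP53INP1, ZMAT3, TP53I3, SESN1 and RRM2B. They were taken by symbol, and all 10 had a row among the 18889 genes of the normalized expression table. To examine how hyperglycemia alters ER+ breast cancer cells, the study grew 3 established lines of human breast carcinoma, which are ZR-75-30, MDA-MB-175 and HCC1500, without serum at 5 mM glucose (low, the control) or at 25 mM (high), and sequenced RNA after 48 h. With 4 cultures for every line and glucose level there were 24 cultures in 6 groups. Cells of both conditions were first kept in low glucose medium. Each line stands for 1 tumor, and the labels name no osmotic control for these cultures. The labels call the 4 cultures of a group replicates without saying how they were separated, so p-values measure only the spread between these cultures, which may be technical.

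p53 is a transcription factor that is held at a low level in unstressed cells, mainly because the MDM2 protein marks it for degradation. DNA damage, nucleolar stress, oncogene activity or nutrient stress can stabilize it. Stable p53 raises a program of genes that stops the cell cycle, starts apoptosis, repairs DNA or alters metabolism, and it raises MDM2 as well, which closes a negative feedback loop. Many genes of division fall when p53 is active, largely through p21 (CDKN1A) and the DREAM repressor complex, but the same genes also fall in cells that divide more slowly for other reasons.

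p53 binds DNA at a pair of 10-base half-sites. The standard p53 half-site consensus, which reads the same on both strands, was searched for near the members' start sites, and the matches are shown as the sequences in these windows that have the form p53 recognizes. Promoter windows of 250 bases before to 50 after a RefSeq start (GRCh38.p14) were at hand for 8 members, with 16 windows between them. A match was found in 2 of these 16 windows, 1 of FAS and 1 of SESN1. A match was found in 6.63% of all 35116 promoter windows. The stricter form with CATG at its centre was in 0 of the 16 windows and in 1.57% of all. The 2 half-sites are shown with 10 bases on each side, with the half-site in capitals. That of FAS lies 122 to 113 bases before the start, at chr10:90751056-90751085 (GRCh37, plus strand), in an annotated exon of FAS. That of SESN1 lies 49 to 40 bases before the start, at chr6:109330221-109330250 (GRCh37, minus strand), in an intron of SESN1.
FAS: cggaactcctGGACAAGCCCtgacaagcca
SESN1: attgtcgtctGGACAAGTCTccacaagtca
A match is a description of these letters and shows no binding. A site outside these windows would not have been found, so windows without a match do not show that a member lacks one. FAS was among the genes that rose with glucose in 2 of the lines, and SESN1 fell in 1 line and rose in none.

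The values are normalized read counts as deposited, that is, whole reads divided by 1 factor per sample. Recovered reads ran from 9140024 to 17998819 per culture, and in HCC1500 the low glucose cultures (13190982 to 17998819) were deeper than each high glucose culture (9423472 to 12140912). A count of 3 reads was worth 0.953 to 2.29 normalized reads. The third high glucose culture of HCC1500 (replicate 3) stood apart. It correlated with the rest of its group at a mean r of 0.944 over 13310 genes, and 23.9% of those genes lay over 1 log2 unit away from that group, against at most 1.74% in any other culture. It is kept in the main tests, and the glucose change of each member in HCC1500 is also given without it. The glucose-responsive genes TXNIP and ARRDC4 were higher in high glucose in every line, with TXNIP called in all 3 (log2 change 0.39 for MDA-MB-175, 0.76 for ZR-75-30 and 1.02 for HCC1500) and ARRDC4 not called in HCC1500 (0.39, adjusted p = 0.0704). The luminal markers ESR1, GATA3, FOXA1, KRT8, KRT18, KRT19, EPCAM and CDH1 were all detected, with summed levels of 30778 to 64553 per culture. Markers of other cells were low. The 6 fibroblast markers summed to 78.6 to 295 per culture, the 3 basal markers used to 6.35 to 132, the 2 leukocyte markers used to 1.15 to 44.5 and the 2 endothelial markers used to 0 to 77.7, while KRT5, KRT14, PTPRC, CD3E and PECAM1 were not analysed here. The basal and leukocyte sums moved with glucose in some lines. In ZR-75-30 the leukocyte sum was 4.58 to 6.82 in low and 34.4 to 44.5 in high glucose, mostly CD68, and in MDA-MB-175 it was 1.34 to 4.56 and 4.68 to 10.4. The basal sum was 6.87 to 10.8 in low and 21.7 to 33.8 in high glucose in ZR-75-30, 6.35 to 6.90 and 11.9 to 14.9 in HCC1500, both largely ACTA2, and 79.1 to 110.5 and 113 to 132 in MDA-MB-175. Their part in the results was not tested. RNA was from whole cultures, in which fewer cells of a type and less RNA per cell cannot be told apart.

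High glucose raised a part of the program in every line, but which members were called differed. A call in 1 line and none in another is not by itself a difference in response. CDKN1A and ZMAT3 were higher in high than in low glucose in all 3 lines, BBC3, FAS, RRM2B and TP53INP1 were called higher in some of them, and MDM2 fell slightly in 2 lines. In HCC1500 the log2 change of MDM2 was upward, at 0.34 and not called with all cultures, and at 0.46 and called without replicate 3. Genes were called at a limma adjusted p under 0.05, adjusted over all genes tested. In MDA-MB-175, 4 of the 10 members rose and 1 fell, where 25.7% of all 17029 tested genes changed, 11.9% upward and 13.7% downward. In ZR-75-30, 6 rose and 2 fell, where 46.0% of 15834 genes changed, 23.4% upward and 22.7% downward. In HCC1500, 4 rose and 0 fell, where 20.5% of 16361 genes changed, 7.46% upward and 13.0% downward. Without replicate 3 the HCC1500 count was 7 rises and 0 falls, where 58.5% of 16235 genes changed, 20.9% upward and 37.7% downward. The split of all HCC1500 calls moved with the scaling, from 1221 higher and 2129 lower in the deposited scale to 1726 and 1802 with median-of-ratios factors. The high and low glucose cultures did not overlap for 5 members in MDA-MB-175 (26.6% of all genes), 8 in ZR-75-30 (42.0%), 5 in HCC1500 (32.4%) and 7 in HCC1500 without replicate 3 (58.1%). All 10 members passed the filter on low values in each line. In MDA-MB-175 their median log2 change was 0.03, beside -0.02 over all genes. For ZR-75-30 it was 0.47 beside 0.01, and for HCC1500 it was 0.50 beside -0.06, or 0.60 beside -0.12 without replicate 3.

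**Figure D1:**
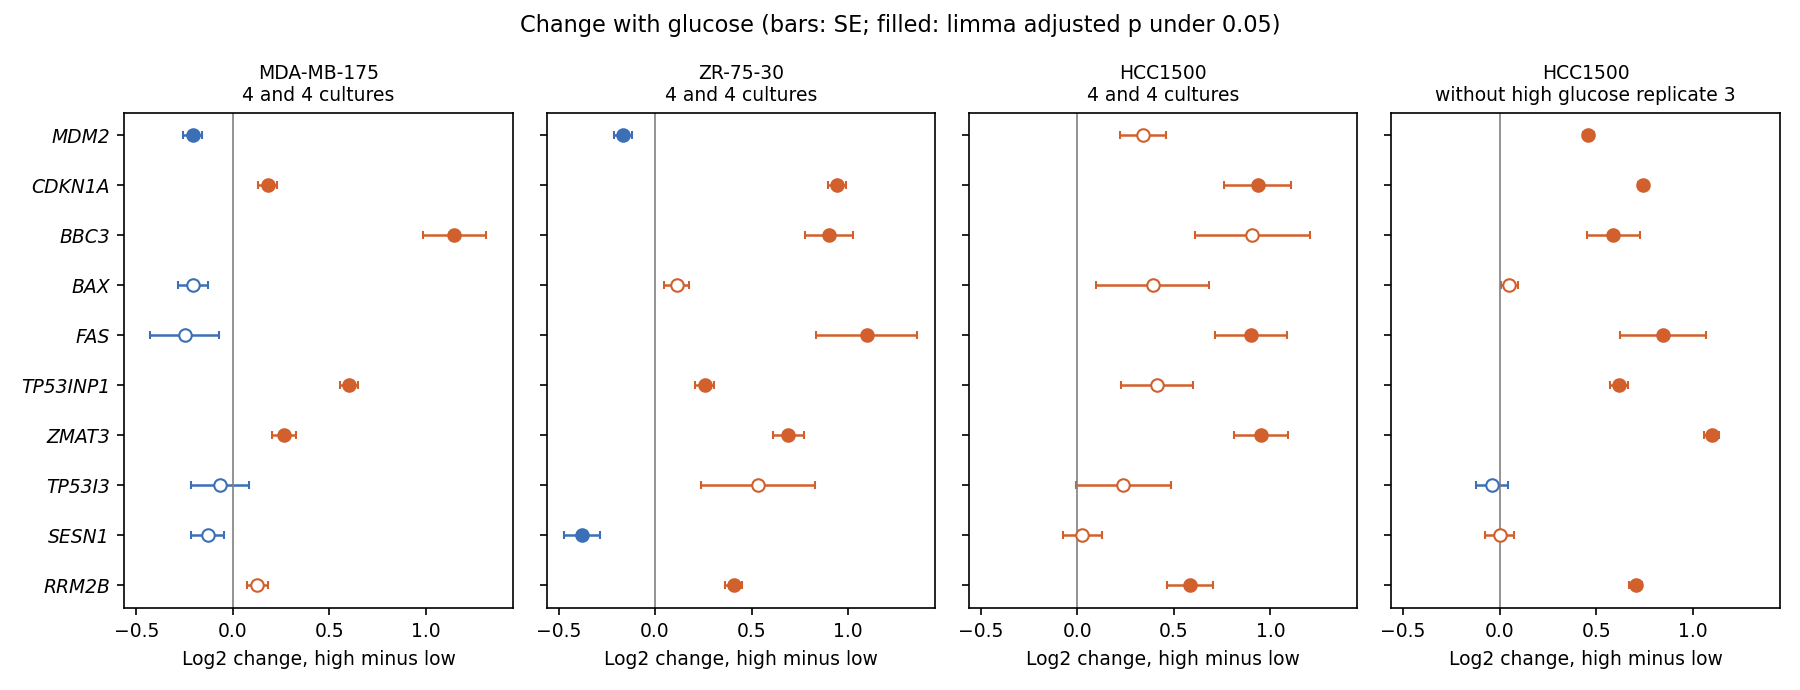
Log2 change of each p53 target gene (high minus low glucose, on the log2(value + 1) scale) in each line and in HCC1500 without high glucose replicate 3; points are limma estimates, bars 1 SE, and filled points have an adjusted p under 0.05. CDKN1A and ZMAT3 lie to the right of 0 in all panels, and MDM2 lies to the left in the first 2 panels and to the right in those of HCC1500.

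MDM2 encodes the ubiquitin ligase that limits p53, and is itself a p53 target (ENSG00000135679, chromosome 12, 69201957 to 69239324, plus strand, GRCh37). In MDA-MB-175 the low glucose cultures had 926, 992, 962 and 1042 normalized reads and the high glucose cultures had 827, 881, 890.1 and 800.2. Each high glucose culture was below every low glucose culture, as for 13.9% of all genes downward in this line, and the log2 change was -0.21 ± 0.05 (SE; limma adjusted p = 0.00495). In ZR-75-30 the values were 597, 549, 583 and 615 in low and 524, 527, 509.6 and 526 in high glucose. The groups again did not overlap, as for 21.1% of all genes downward, and the change was -0.17 ± 0.04 (SE; adjusted p = 0.00474). HCC1500 went the other way in 3 of its 4 high glucose cultures, with 1985, 1916, 1976 and 1942 in low against 2658, 2765, 1922 and 2644 in high glucose. Replicate 3, at 1922, lay within the low glucose range, and the change of 0.34 ± 0.12 (SE) was not called (adjusted p = 0.0799). Without that culture it was 0.46 ± 0.03 (SE; adjusted p = 7.18e-11). The MDM2 response differed between the lines, by 0.55 ± 0.11 (SE) for HCC1500 minus MDA-MB-175 (adjusted p = 0.00135) and 0.50 ± 0.11 (SE) for HCC1500 minus ZR-75-30 (adjusted p = 0.00178). Without replicate 3 these differences were 0.67 ± 0.06 and 0.63 ± 0.06 (SE; adjusted p = 3.95e-09 and 6.91e-09). ZR-75-30 and MDA-MB-175 differed by 0.04 ± 0.11 (SE; adjusted p = 0.898).

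CDKN1A encodes p21, the inhibitor of cyclin-dependent kinases through which p53 arrests the cell cycle (ENSG00000124762, chromosome 6, 36644237 to 36655114, plus strand). In ZR-75-30 its values were 563, 529, 522 and 521 in low and 1029.6, 1071, 1055 and 955 in high glucose. Each high glucose culture was well above each low glucose culture, and the log2 change was 0.94 ± 0.04 (SE; adjusted p = 9.66e-12). The rise in MDA-MB-175 was much smaller, from 1466, 1361, 1432 and 1277 to 1634, 1559.8, 1488 and 1589. The groups were separate here too, by a narrow margin, with a change of 0.18 ± 0.05 (SE; adjusted p = 0.0102). HCC1500 had 1839.8, 1931, 1883 and 1889 in low and 3193, 3067, 5391 and 3203 in high glucose. Replicate 3 was far above the other 3, and the change was 0.94 ± 0.17 (SE; adjusted p = 0.00639) with it and 0.74 ± 0.03 (SE; adjusted p = 1.26e-13) without it. The CDKN1A response was larger than in MDA-MB-175 by 0.76 ± 0.16 (SE) in ZR-75-30 (adjusted p = 0.00267) and by 0.75 ± 0.16 (SE) in HCC1500 (adjusted p = 0.00183), the latter being 0.56 ± 0.06 (SE; adjusted p = 1.5e-07) without replicate 3. Between ZR-75-30 and HCC1500 it differed by -0.01 ± 0.16 (SE; adjusted p = 0.994), and without replicate 3 by -0.20 ± 0.06 (SE; adjusted p = 0.0109), with HCC1500 the lower.

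BBC3 encodes PUMA, a pro-apoptotic protein of the BCL2 family that p53 raises to start mitochondrial apoptosis (ENSG00000105327, chromosome 19, 47724079 to 47736023, minus strand). Its level was low, with 32 to 213 reads per culture. In MDA-MB-175 it went from 22.1, 27.5, 18.2 and 16.3 up to 45.8, 43.7, 51.5 and 46.8, the largest change of the 10 members in that line (log2 change 1.15 ± 0.16, SE; adjusted p = 6.72e-05). In ZR-75-30 it went up from 51.5, 46.6, 46.1 and 42.0 to 97.9, 97.2, 90.5 and 68.5, by 0.90 ± 0.13 (SE; adjusted p = 9.89e-06). The groups did not overlap in either line, as for 12.7% of all genes upward in MDA-MB-175 and 20.9% in ZR-75-30. In HCC1500 the high glucose cultures, at 41.9, 60.7, 125 and 53.5, were also all above the low glucose cultures, at 31.5, 34.9, 32.6 and 36.6, as for 13.7% of all genes upward. Replicate 3 again had the highest value, and the change of 0.91 ± 0.30 (SE) was not called (adjusted p = 0.0641), while without it the change was 0.59 ± 0.14 (SE; adjusted p = 0.00126). The BBC3 response was not called as different between the lines (F test over 3 lines, adjusted p = 0.784, and 0.0879 without replicate 3).

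BAX, the effector of the BCL2 family that opens the outer mitochondrial membrane, did not pass the test in any line (ENSG00000087088, chromosome 19, 49458072 to 49465055, plus strand). Its mean was 264 ± 33.3 in low and 227 ± 6.57 in high glucose in MDA-MB-175 (SD, n = 4; adjusted p = 0.0608), and leaving out low glucose replicate 4, the lowest of its group, brought the change from -0.21 to -0.29 (adjusted p = 0.00155). In ZR-75-30 the means were 171 ± 6.84 and 185 ± 9.36 (SD, n = 4; adjusted p = 0.169). HCC1500 had 475, 498, 546 and 521 in low and 534, 518, 1355 and 529.9 in high glucose. Apart from replicate 3 the high glucose cultures lay within the low glucose range, and without it the log2 change was 0.05 ± 0.04 (SE; adjusted p = 0.359).

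FAS encodes the CD95 death receptor, a cell surface target of p53 (ENSG00000026103, chromosome 10, 90750414 to 90775542, plus strand). Its counts were low, with 9 to 57 reads per culture. In ZR-75-30 the values were 4.99, 13.1, 6.84 and 6.87 in low and 15.1, 17.6, 17.0 and 19.2 in high glucose. The groups did not overlap, although low glucose replicate 2 came close, and the change was 1.10 ± 0.26 (SE; adjusted p = 0.00215). HCC1500 cultures went from 6.84, 9.53, 8.05 and 9.47 up to 17.7, 12.9, 18.6 and 17.5, by 0.90 ± 0.19 (SE; adjusted p = 0.0106), and by 0.85 ± 0.22 (SE; adjusted p = 0.00316) without replicate 3. Its HCC1500 groups did not overlap either. MDA-MB-175 had 20.9, 23.5, 23.9 and 18.8 in low and 23.7, 15.9, 16.8 and 16.8 in high glucose, overlapping groups with a change of -0.25 ± 0.18 (SE; adjusted p = 0.344). The response was higher by 1.34 ± 0.29 (SE) in ZR-75-30 (adjusted p = 0.00325) and by 1.15 ± 0.29 (SE) in HCC1500 (adjusted p = 0.00725) than in MDA-MB-175, and without replicate 3 the HCC1500 difference was 1.09 ± 0.31 (SE; adjusted p = 0.00759). At the FAS locus 917 exon bases are shared with genes of the opposite strand, ACTA2 (smooth muscle actin) among them, and whether strand was used in counting is not given for these libraries. ACTA2 itself changed by 1.90 in ZR-75-30 (adjusted p = 7.98e-06), 1.09 in HCC1500 (adjusted p = 0.00371) and 0.17 in MDA-MB-175 (adjusted p = 0.496), and its part in the FAS values was not tested.

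TP53INP1 encodes a stress-induced nuclear protein that acts with p53 in cell death and autophagy (ENSG00000164938, chromosome 8, 95938200 to 95961606, minus strand). In MDA-MB-175 it rose from 443, 468, 444 and 482 in low to 669, 734, 714 and 675 in high glucose. The log2 change was 0.60 ± 0.05 (SE; adjusted p = 1.67e-07), and the lowest high glucose culture was far above the highest low glucose culture. In ZR-75-30 it went up from 471, 497, 521 and 469.5 to 605, 568, 556 and 614, by 0.26 ± 0.05 (SE; adjusted p = 0.000255). In HCC1500 the values were 552, 486, 566 and 566 in low and 812, 836, 473 and 847 in high glucose. Replicate 3, at 473, was below all low glucose cultures while the other 3 were above them, so that the change was not called with it (0.41 ± 0.19, SE; adjusted p = 0.156) and was called without it (0.62 ± 0.05, SE; adjusted p = 2.57e-09). The difference between the lines was not called with all cultures (F test adjusted p = 0.292) and was called without replicate 3 (adjusted p = 0.000187). The response in ZR-75-30 was below that in MDA-MB-175 by -0.34 with and without replicate 3, as no HCC1500 culture enters this estimate. It was called only with the smaller shared spread of the fit without replicate 3 (-0.34 ± 0.07, SE; adjusted p = 0.000638). In that fit the response in HCC1500 was above that in ZR-75-30 (0.36 ± 0.07, SE; adjusted p = 0.000305).

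ZMAT3 encodes a zinc finger RNA-binding protein that p53 uses in growth suppression and splicing (ENSG00000172667, chromosome 3, 178677909 to 178790003, minus strand). It shares no exon base with another gene. HCC1500 cultures went up from 350.0, 370.0, 369 and 354 to 795, 768, 515 and 757, the largest change of the members there (0.95 ± 0.14, SE; adjusted p = 0.00207). Replicate 3 was the lowest of the high glucose cultures and still above each low glucose culture, and the change was 1.10 ± 0.04 (SE; adjusted p = 7.07e-14) without it. In ZR-75-30 the values were 176, 166, 174 and 217 in low and 319, 269, 283 and 312 in high glucose, a change of 0.69 ± 0.08 (SE; adjusted p = 9.82e-07). In MDA-MB-175 they were 268, 304, 289 and 289 in low and 320.4, 369, 370.1 and 325 in high glucose, a change of 0.26 ± 0.06 (SE; adjusted p = 0.00524). The groups were separate in each line, and the response was larger in HCC1500 than in MDA-MB-175 by 0.69 ± 0.15 (SE; adjusted p = 0.00269), and by 0.83 ± 0.10 (SE; adjusted p = 9.15e-07) without replicate 3.

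TP53I3 encodes a quinone oxidoreductase tied to reactive oxygen species in p53-dependent death (ENSG00000115129, chromosome 2, 24300303 to 24308731, minus strand). It was not called in any line. In MDA-MB-175 its means were 34.8 ± 5.77 and 33.1 ± 3.40 (SD, n = 4; adjusted p = 0.802). In ZR-75-30 it was near the detection floor, with 5 to 22 reads per culture, and the change of 0.53 ± 0.30 (SE) was not called (adjusted p = 0.151). HCC1500 had 93.1, 87.0, 82.8 and 87.4 in low and 85.5, 83.6, 184 and 86.3 in high glucose, so that the change of 0.24 (adjusted p = 0.553) became -0.04 (adjusted p = 0.699) without replicate 3.

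SESN1 and RRM2B act in metabolism and repair. SESN1 encodes a sestrin, a p53-induced restraint on mTORC1 signaling (ENSG00000080546, chromosome 6, 109305512 to 109416049, minus strand). It was the other member that fell, in ZR-75-30, from 156, 147, 158 and 175 to 139, 105, 134 and 112 (-0.38 ± 0.09, SE; adjusted p = 0.00233). The groups did not overlap. In the other two lines it was not called, at -0.13 ± 0.09 (SE) in MDA-MB-175 (adjusted p = 0.303) and 0.03 ± 0.10 (SE) in HCC1500 (adjusted p = 0.891, and 0.996 without replicate 3). RRM2B encodes the p53-inducible small subunit of ribonucleotide reductase, which supplies deoxynucleotides for repair (ENSG00000048392, chromosome 8, 103216730 to 103251189, minus strand). In ZR-75-30 it went up from 410.0, 387, 396 and 414 to 510.4, 527, 537 and 557 (0.41 ± 0.05, SE; adjusted p = 6.95e-07). HCC1500 cultures went up from 811, 794, 779 and 778 to 1237, 1347, 922 and 1286, by 0.58 ± 0.12 (SE; adjusted p = 0.0102), and by 0.70 ± 0.03 (SE; adjusted p = 5.23e-12) without replicate 3. Both conditions were separate in these lines, whereas in MDA-MB-175 they overlapped, with 612, 660.0, 708 and 717 in low and 708, 744, 782 and 709 in high glucose (0.13 ± 0.05, SE; adjusted p = 0.105).

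**Figure D2:**
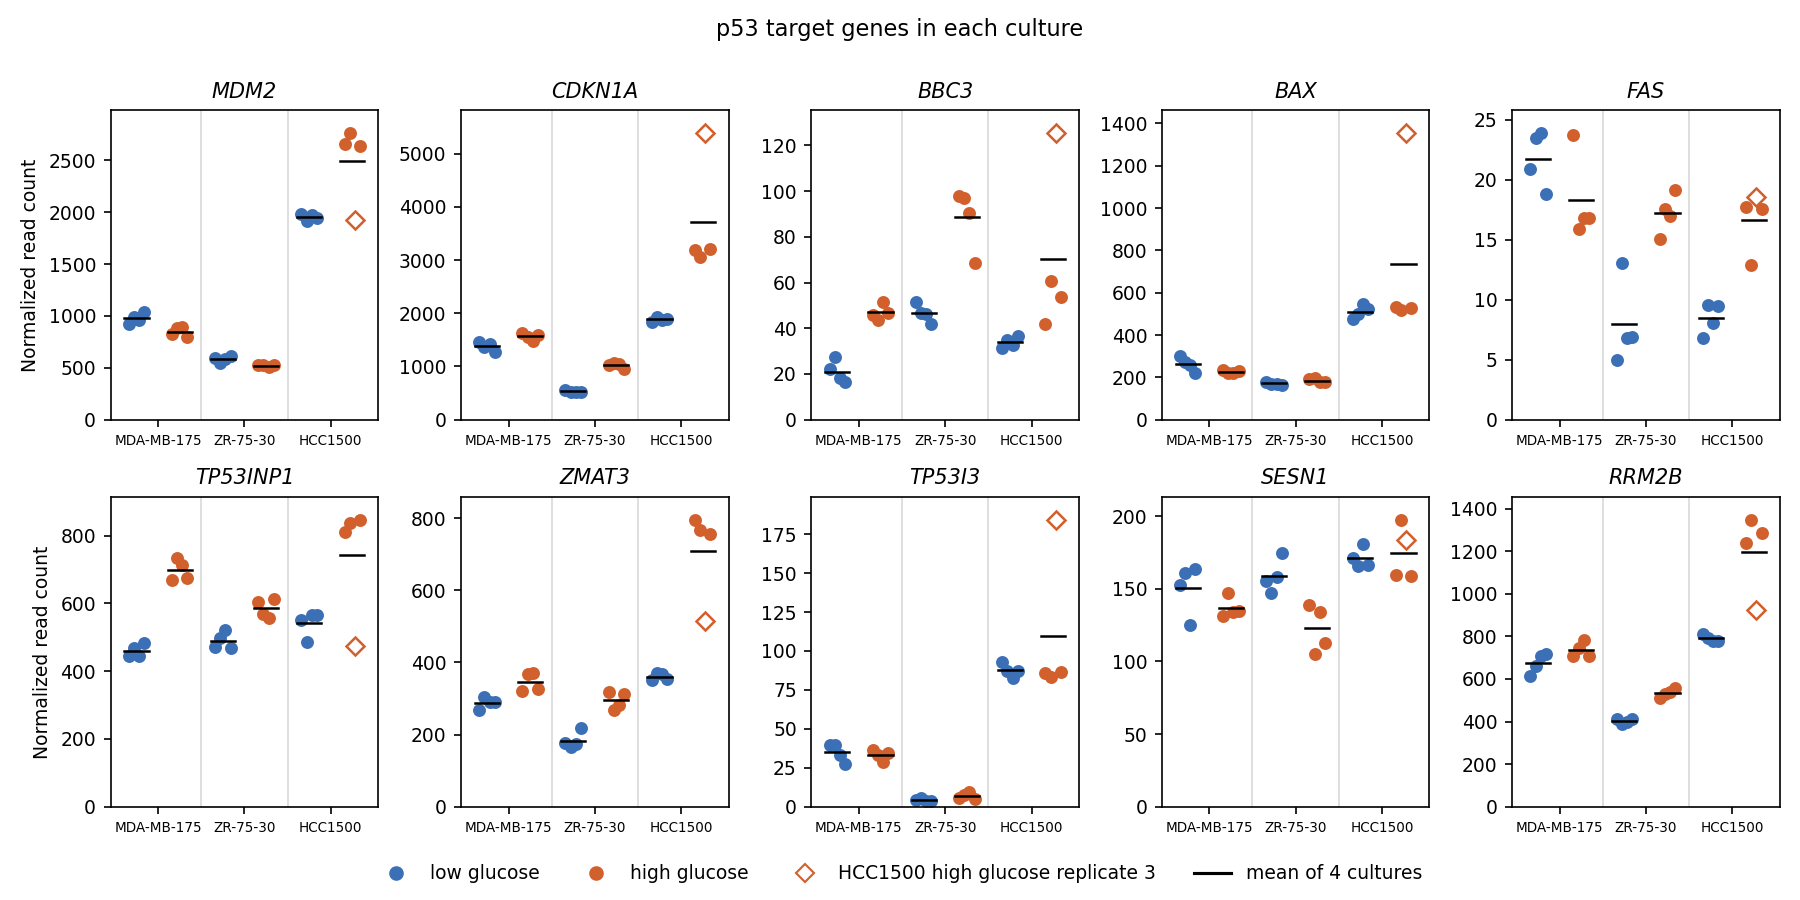
Normalized read counts of the 10 p53 target genes in each of the 24 cultures, by line and glucose (1 point per culture, black line the mean of 4, each axis from 0). The open diamond is HCC1500 high glucose replicate 3, which lies far above its group for CDKN1A (5391), BAX (1355) and TP53I3 (184) and below it for MDM2 (1922), ZMAT3 (515) and TP53INP1 (473).

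Seen over the lines, 2 of the 10 members, CDKN1A and ZMAT3, were called higher in each of the 3 lines, beside 1.81% of the 14636 genes tested in all 3. Without replicate 3 BBC3 and TP53INP1 joined them, giving 4 of 10 beside 3.73% of genes. Called lower in each line were 0 members, beside 3.32% of genes with all cultures and 6.74% without replicate 3. The response differed between lines for 5 of the 10, CDKN1A, MDM2, FAS, ZMAT3 and RRM2B (F test, beside 29.3% of 18144 genes). Without replicate 3, BAX and TP53INP1 were added, 7 of 10 beside 48.6% of genes. By pairs of lines with all cultures, 2 members had a higher response in ZR-75-30 than in MDA-MB-175 (11.2% of all genes differed), 5 a higher response in HCC1500 than in MDA-MB-175 (17.7%) and 2, MDM2 and SESN1, a higher response in HCC1500 than in ZR-75-30 (25.2%), with 0 lower in each pair. The SESN1 difference (0.40 ± 0.14, SE; adjusted p = 0.0359) was not called in 8 of 24 fits that left out 1 culture. Without replicate 3 the counts were 5 higher and 1 lower (25.8%), 6 higher and 1 lower (32.5%), and 5 higher and 1 lower (40.5%). No HCC1500 culture enters the ZR-75-30 minus MDA-MB-175 estimates, which were the same with and without replicate 3. The counts of that pair moved through the estimate of spread, which the 3 lines share and which includes replicate 3 in the main fit. With values rescaled to CPM, 2 of the 10 differed between lines, beside 6241 of 16855 genes.

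The deviation of replicate 3 ran with the length of the members. Its value was 2.57 times the mean of the other 3 high glucose cultures for BAX, 2.41 times for BBC3, 2.16 times for TP53I3 and 1.71 times for CDKN1A, which have 2312 to 3185 summed exon bases. It was 0.569 times that mean for TP53INP1, 0.666 times for ZMAT3, 0.714 times for RRM2B and 0.715 times for MDM2, which have 5391 to 11298 exon bases. FAS (1.16 times) and SESN1 (1.07 times) were closest to the group. Across the 10 members the Spearman correlation of the log2 ratio with exon length was -0.81, and across 12488 genes it was -0.56, both within 1 library, where genes are not independent replicates. The direction of the HCC1500 changes in CDKN1A, FAS, ZMAT3, RRM2B, BBC3, MDM2 and TP53INP1 was upward with and without this culture, whereas the values of BAX and TP53I3 in its group rested on it.

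**Figure D3:**
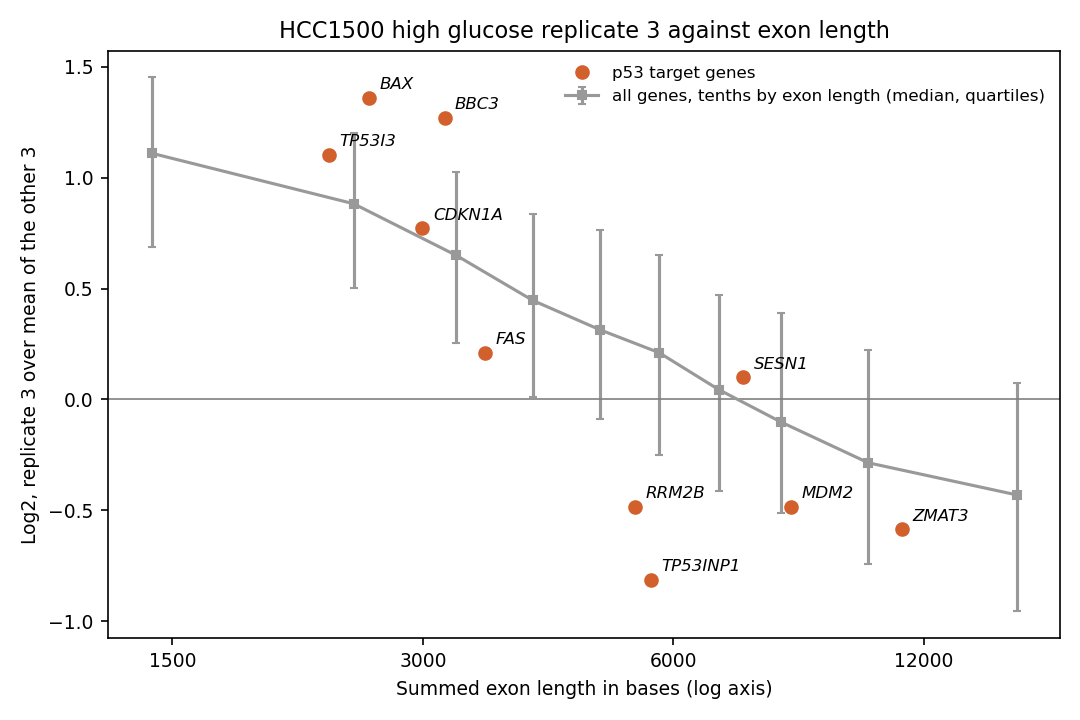
Log2 ratio of HCC1500 high glucose replicate 3 to the mean of the other 3 high glucose cultures against summed exon length (log axis), for the p53 target genes (orange) and for all genes in 10 bins by length (grey squares, median and quartiles). The ratio falls with length among all genes, from a median of 1.11 in the shortest bin to -0.43 in the longest, and the members run from 1.36 for BAX to -0.81 for TP53INP1.

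At low glucose the lines differed in the basal level of nearly all members. The F test over the 3 lines was passed by 9 of the 10 members (SESN1 adjusted p = 0.107), beside 92.6% of 17739 genes, so such a difference was the rule in these lines. HCC1500 had the highest mean for 8 members, while FAS was highest in MDA-MB-175 and BBC3 in ZR-75-30. The widest range was that of TP53I3, with 87.6 ± 4.22 (SD, n = 4) in HCC1500, 34.8 ± 5.77 in MDA-MB-175 and 4.34 ± 0.991 in ZR-75-30, which is 20.2 times between the ends. CDKN1A was 1886 ± 37.3 in HCC1500, 1384 ± 83.4 in MDA-MB-175 and 534 ± 19.9 in ZR-75-30, and MDM2 was 1955 ± 32.1, 981 ± 49.2 and 586 ± 27.6 in the same order. Both neighbouring steps passed the test for these 3 genes and for BAX, ZMAT3 and RRM2B, which had the same order of lines. How many of all genes had this order, or were highest in HCC1500, was not counted. The order is therefore not read as particular to the members. BAX ran from 510.1 ± 30.2 to 171 ± 6.84, ZMAT3 from 361 ± 10.03 to 183 ± 22.7 and RRM2B from 791 ± 15.4 to 402 ± 12.3 between HCC1500 and ZR-75-30.

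The other 4 members had other orders. FAS was 21.8 ± 2.38 in MDA-MB-175, against 8.47 ± 1.29 in HCC1500 and 7.94 ± 3.54 in ZR-75-30, and the last pair did not differ beyond their spread (adjusted p = 0.576). BBC3 was 46.6 ± 3.90 in ZR-75-30, 33.9 ± 2.28 in HCC1500 and 21.01 ± 4.93 in MDA-MB-175, with each step called (adjusted p = 0.0127 and 0.000579). SESN1 was 171 ± 6.81 in HCC1500, 159 ± 11.5 in ZR-75-30 and 151 ± 17.5 in MDA-MB-175, and neither step was called. TP53INP1 was 543 ± 38.2 in HCC1500, 489.5 ± 24.3 in ZR-75-30 and 459 ± 19.2 in MDA-MB-175, with the first step called (adjusted p = 0.0213) and the second not (adjusted p = 0.144). Counted by pairs of lines, ZR-75-30 differed from MDA-MB-175 for 8 members (73.1% of all genes), 1 higher (28.8%) and 7 lower (44.3%). HCC1500 differed from MDA-MB-175 for 10 (80.6%), 9 higher (42.2%) and 1 lower (38.4%), and from ZR-75-30 for 8 (80.4%), 7 higher (48.0%) and 1 lower (32.4%). The call of SESN1 for HCC1500 minus MDA-MB-175 (0.19, adjusted p = 0.0445) was lost under 4 of 9 other settings and in 8 of 12 fits that left out 1 culture. That of TP53INP1 for HCC1500 minus ZR-75-30 was lost or turned under 3 of 9 other settings and lost in 5 of 12 such fits. The log2 difference of ZR-75-30 minus MDA-MB-175 had a median over all genes of -0.18 in the deposited scale, -0.30 in CPM and -0.10 with median-of-ratios factors, and that of HCC1500 minus ZR-75-30 had 0.25, 0.46 and 0.12. Among the alternatives run, the small differences of SESN1, FAS and TP53INP1 between ZR-75-30 and another line changed sign under at least 1, and no other low glucose difference of a member did.

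Per kilobase of exon the members can be set beside each other. At low glucose in HCC1500 CDKN1A had 629 normalized reads per kilobase, followed by MDM2 with 235, BAX with 197, RRM2B with 147 and TP53INP1 with 96.2. TP53I3 (37.9), ZMAT3 (31.9), SESN1 (23.5), BBC3 (10.7) and FAS (2.38) had lower levels. In ZR-75-30 at low glucose CDKN1A was also first with 178, and FAS (2.23) and TP53I3 (1.88) were last. Exon length here is the union over all annotated transcripts, so a level per kilobase is a lower estimate for genes with many alternative exons.

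The glucose responses were next set beside a list of 38 other p53 targets. In MDA-MB-175, 8 of the 36 tested rose and 5 fell, beside 11.9% and 13.7% of all genes. PMAIP1 (the pro-apoptotic NOXA) changed by 1.07, GDF15 (a stress-induced secreted factor) by 0.98 and DRAM1 (a lysosomal membrane protein of autophagy) by 0.83, whereas FDXR (ferredoxin reductase) fell by 0.55, XPC (damage recognition in nucleotide excision repair) by 0.19 and SUSD6 by 0.15. The XPC call was lost under 1 of 9 other settings and in 5 of 8 fits that left out 1 culture. In ZR-75-30, 13 of 37 rose and 8 fell, beside 23.4% and 22.7% of all genes, with the largest rises in TRIM22 (2.05), GADD45A (1.49, a growth arrest and repair protein) and GDF15 (1.44). The largest falls were those of APAF1 (-0.40, the apoptosome scaffold), BTG2 (-0.33, an antiproliferative protein) and ASCC3 (-0.27, a helicase). In HCC1500, 14 of 37 rose and 3 fell, beside 7.46% and 13.0% of all genes. Without replicate 3 the counts were 20 and 10, beside 20.9% and 37.7%. GDF15 (2.41), PLK3 (1.23) and AEN (1.17, a p53-induced nuclease) rose most, and the 3 that fell were CD82 (-0.59), PANK1 (-0.44) and PLXNB2 (-0.38). Without replicate 3 these rises were 2.08, 1.004 and 1.06. The HCC1500 call of PANK1 was lost under 1 of 9 other settings and in 4 of 8 fits that left out 1 culture, and that of PLXNB2 under 1 of 9 other settings. The list's median log2 change was 0.02 for MDA-MB-175, 0.16 for ZR-75-30 and 0.39 for HCC1500 (0.23 without replicate 3), beside the medians over all genes given above.

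In each of the 3 lines 3 of the 38 genes were called higher, DRAM1, GDF15 and TNFRSF10B (the TRAIL death receptor), beside 1.81% of all genes. CD82 was called lower in each, 1 of 38 beside 3.32% of all genes, and its HCC1500 call was lost with a replicate block and in 7 of 8 fits that left out 1 culture. The fit that kept this call was that without replicate 3, with a change of -0.75. Without replicate 3 PHLDA3 was also called higher in each line. These were named after their values were seen, apart from the lines in which the rule named them. The changes of TNFRSF10B were 0.59 for MDA-MB-175, 0.66 for ZR-75-30 and 1.04 for HCC1500, and in this order those of CD82 were -0.19, -0.18 and -0.59. For GDF15 the MDA-MB-175 means were 2503 ± 358 and 4907 ± 258 (SD, n = 4), and the HCC1500 means were 359 ± 20.8 (SD, n = 4) and, without replicate 3, 1521 ± 41.1 (SD, n = 3). BTG2 went in opposite directions, down in ZR-75-30 and up in HCC1500 (0.81 ± 0.10, SE; adjusted p = 0.00101).

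MDM4, the partner of MDM2 in restraining p53, was not called in any line, with changes of 0.11, 0.06 and 0.03 in MDA-MB-175, then ZR-75-30, then HCC1500. Of the 20 listed regulators 0 rose and 8 fell in MDA-MB-175, 3 rose and 8 fell in ZR-75-30, and 1 of 19 rose and 2 fell in HCC1500 (5 and 8 without replicate 3). Among all genes the shares that fell were 13.7% for MDA-MB-175, 22.7% for ZR-75-30 and 13.0% for HCC1500 (37.7% without replicate 3). The shares that rose were 11.9%, 23.4% and 7.46% (20.9% without replicate 3) in the same order. In HCC1500 5.26% of the regulators rose and 10.5% fell (26.3% and 42.1% without replicate 3), near the shares of all genes. CHEK1, the checkpoint kinase of replication stress, fell in each line, by 0.29, 1.19 and 0.80 on the log2 scale. TP73, a member of the p53 family, fell by 0.45, 1.48 and 0.70. With all cultures these were the 2 of 20 regulators called lower in each line, beside 3.32% of all genes. In MDA-MB-175 each of these calls was lost in 4 of 8 fits that left out 1 culture, and that of CHEK1 also under 1 of 9 other settings.

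Genes that the p21-DREAM axis represses fell together. All 15 on the list fell in ZR-75-30 as in MDA-MB-175, and 14 of 15 fell in HCC1500, where E2F1 was not called with replicate 3 (adjusted p = 0.095) and was called without it (adjusted p = 1.66e-11). With it, E2F1 was called there in CPM and by DESeq2. The shares of all genes that fell in these lines, given above, were 13.0% to 22.7%. The E2F1 call in MDA-MB-175 was lost in 5 of 8 fits that left out 1 culture. These are cell cycle genes that also follow the rate of division, and CHEK1 is on both this list and that of the regulators. The median log2 change was -0.46 for MDA-MB-175, -0.86 for ZR-75-30 and -1.34 for HCC1500, beside CDKN1A changes of 0.18, 0.94 and 0.94. Without replicate 3 the HCC1500 median was -1.52, beside a CDKN1A change of 0.74, which is smaller than that in ZR-75-30. CCNB1, the mitotic cyclin, changed by -0.52 ± 0.04, -0.57 ± 0.04 and -0.75 ± 0.15 (SE), and E2F1 by -0.21, -1.17 and -0.67. Whether the fall of these genes passes through p21 was not tested.

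**Figure D4:**
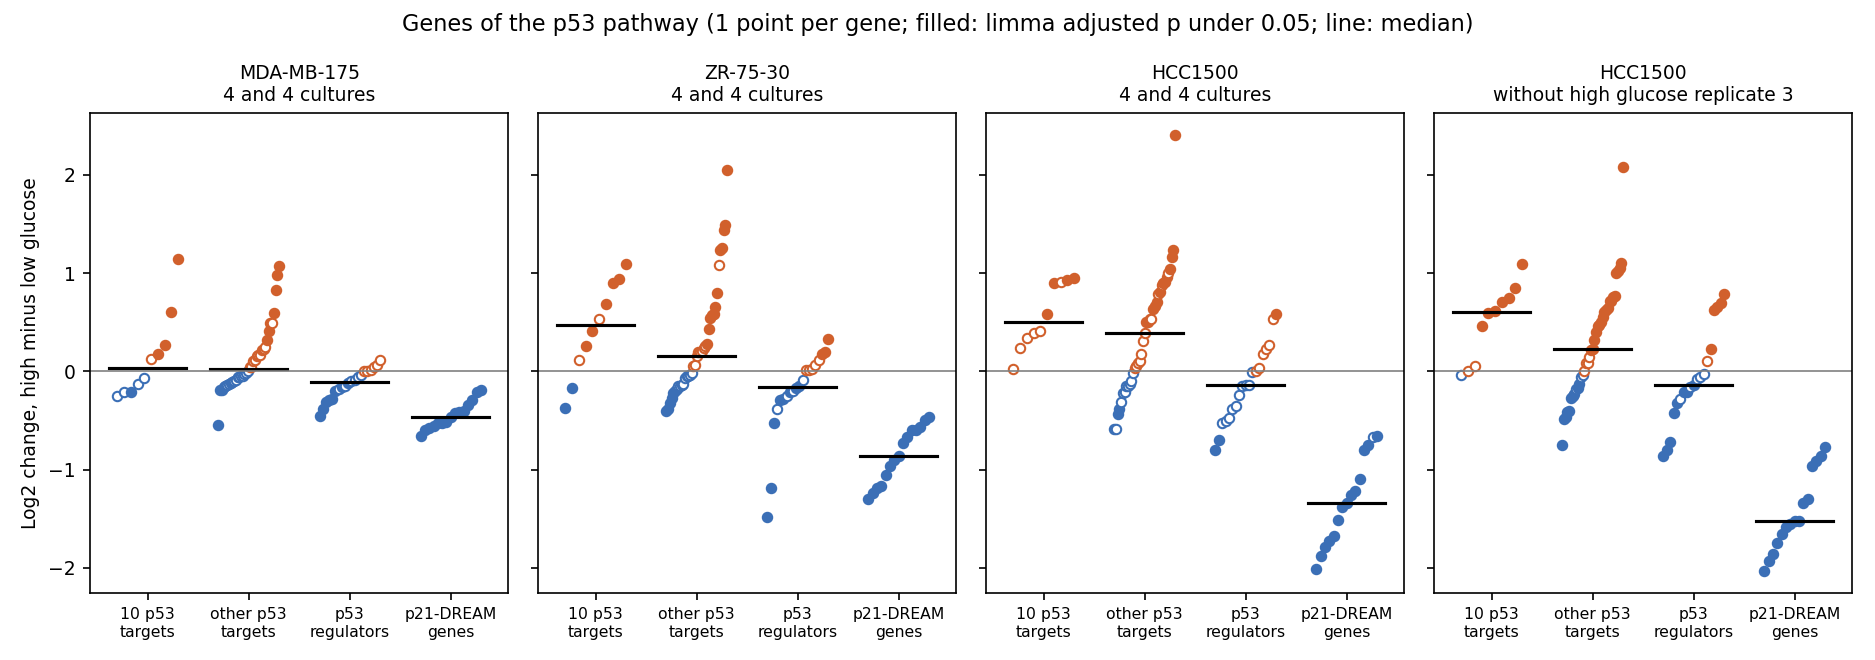
Log2 change with high glucose of the 10 p53 target genes, 38 other p53 targets, 20 p53 regulators and 15 p21-DREAM repressed genes, in each line and in HCC1500 without high glucose replicate 3 (1 point per tested gene, orange above 0, blue below, filled at a limma adjusted p under 0.05, black line the median). The p21-DREAM genes all lie below 0 in each panel, with medians of -0.46, -0.86, -1.34 and -1.52, while the other p53 targets lie on both sides of 0 in each.

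To see which genes behaved most like the arrest and the feedback member, each gene's log2 values were centred within each line over 23 cultures, leaving out replicate 3. Among 13310 genes CDKN1A was most like NEU1 (a lysosomal sialidase, Pearson r = 0.990) and H1F0 (a linker histone, 0.989). MDM2 was most like AKAP9 (0.943), SLC39A6 (a zinc transporter, 0.942) and RTN3 (0.940). No other p53 target of the lists was among these 5, which among 13310 genes says little about whether the targets moved together. On the same centred values CDKN1A had r = 0.888 with ZMAT3, 0.873 with RRM2B and 0.807 with FAS. Its only negative value among the members was -0.592, with SESN1. For MDM2 the values ran from -0.336 with TP53I3 to 0.487 with RRM2B. All genes share these libraries and glucose groups, and the r values are a description.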

How the data were processed

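RNA-Seq of 24 cultures (3 lines, 2 glucose conditions, 4 replicates) was analysed from the gene table the authors deposited. The deposited values are a normalized signal per gene, and 100% of them were whole multiples of a per-sample unit (within 0.1 reads), that is, reads divided by 1 factor per sample, which was not identified. The study's methods name Trimmomatic, TopHat, hg19 and Ensembl v70 genes, with DESeq2 tests and edgeR CPM, whereas the submitters' processing notes name hg38 and edgeR. Strand use in counting is not given in the sources used here. Lines beginning with a symbol split over cells (9 genes) were read from their end.

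Each line was tested by limma 3.58.1 in R 4.3.3 with trended variances, on log2(value + 1), for genes with at least 0.5 in at least 4 fitted samples, and Benjamini-Hochberg adjusted p under 0.05 over all genes. This scale understates changes of low genes. Lines were compared at low glucose over 12 samples, and glucose responses over 24 samples by contrasts and an F test. edgeR 4.0.16 and DESeq2 1.42.0 on recovered reads, other pseudocounts, filters and scalings, a replicate block and leaving out each culture were alternatives. The tests were tested on simulated data. The members and gene lists were chosen with earlier results of these data known. Named were all members, per line the 3 largest rises and falls among called other targets with no overlap, MDM4, regulators called alike in all lines, CCNB1, E2F1, TXNIP, ARRDC4 and the 3 genes most like CDKN1A and MDM2. Some genes that this rule named are not reported here. Gene positions and exon lengths come from a GENCODE annotation on GRCh37 and count from 1. Promoter windows are from RefSeq and were placed in GRCh37 by exact match. Half-sites could not be searched for RRM2B and TP53INP1. Of shared exon bases between overlapping genes, BAX, ZMAT3 and RRM2B had 0, CDKN1A 146, MDM2 439 on its own strand and 918 on the other, FAS 917, SESN1 363, TP53INP1 225, BBC3 80 and TP53I3 80, and these members' counts are uncertain to that extent.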

Additional observations from a re-analysis of the deposited data

Results flagged for a closer look

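In 60 groups of 4 cultures (10 genes, 6 groups), the highest or lowest culture was tested for a gap to its nearest neighbour above Dixon's 95% limit, which chance gives in about 1 of 20 groups. It was passed in 8 groups, of which 6 were HCC1500 high glucose replicate 3. That culture was far above its group for CDKN1A (5391 normalized reads), TP53I3 (184) and BAX (1355), and below it for MDM2 (1922), ZMAT3 (515) and TP53INP1 (473). The other 2 were MDM2 in ZR-75-30 high glucose replicate 3, which was low at 509.6, and FAS in MDA-MB-175 high glucose replicate 1, which was high at 23.7.

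The glucose response differed between the lines by limma's F test on the line by glucose terms for 5 members. The adjusted p was 0.000842 for CDKN1A, 0.000907 for MDM2, 0.00189 for FAS, 0.00459 for ZMAT3 and 0.0138 for RRM2B.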

How the results depend on the processing

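In ZR-75-30 the number of members called was 8 under each alternative run, and in MDA-MB-175 it was 5 to 6 under other settings and 5 to 7 with 1 culture left out. In HCC1500 it was 3 to 5 under other settings and 4 to 7 with 1 culture left out, where 7 came from leaving out high glucose replicate 3. Without that culture 30 other p53 targets were called there in place of 17 (14 to 30 over the cultures left out), while the share of all genes called went from 20.5% to 58.5%. The response differed between lines for 2 members in CPM in place of 5, with 6241 of 16855 genes called in place of 5316 of 18144 (2 to 7 under other settings, 5 to 7 with 1 culture left out). BBC3 in HCC1500 was called with median-of-ratios factors (0.96, adjusted p = 0.0238), edgeR (1.03, 0.0185), DESeq2 (1.05, 0.00106) and in CPM (0.76, 0.0286), RRM2B was not called there in CPM (0.51, 0.0852), and BAX in MDA-MB-175 was called in CPM (-0.22, 0.0221). Leaving out low glucose replicate 4 called BAX (-0.29, 0.00155) and RRM2B (0.16, 0.0278) in MDA-MB-175, and leaving out high glucose replicate 1 called BBC3 in HCC1500 (1.11, 0.0367). The causes were not tested.

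Whether cultures of the same replicate number were paired is not settled by the values. Deviations of same-numbered low and high glucose cultures had mean correlations of 0.01 to 0.04, against -0.012 to -0.0040 for different numbers. Of the low glucose cultures, 4 of 12 correlated best with their own number. With the number as a replicate block 3 members were called in HCC1500 in place of 4, 6 in MDA-MB-175 in place of 5, and 8 in ZR-75-30 as before. The block brought all HCC1500 calls from 3350 to 1964, left FAS there uncalled (0.90, adjusted p = 0.0559) and called BAX in MDA-MB-175 (-0.21, 0.0374).

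Some signs turned, and all were for differences not called in the report except that of TP53INP1 for HCC1500 minus ZR-75-30 at low glucose. In CPM the HCC1500 glucose change was -0.047 for SESN1 and -0.042 for MDM4, and the low glucose difference of ZR-75-30 minus MDA-MB-175 was -0.15 for SESN1 and -0.14 for TP53INP1, which was then called. At low glucose HCC1500 minus ZR-75-30 was, for SESN1, -0.038 with median-of-ratios factors, -0.059 by edgeR and -0.036 by DESeq2, for FAS -0.081 by edgeR and -0.057 by DESeq2, and for TP53INP1 -0.024 by edgeR. The difference in response of HCC1500 minus ZR-75-30 was, for CDKN1A, 0.027, 0.046 and 0.044 with median-of-ratios factors, edgeR and DESeq2, and for BBC3 -0.0078 with a pseudocount of 5 and -0.027 in CPM. With 1 culture left out that difference ran from -0.20 to 0.071 for CDKN1A, -0.31 to 0.21 for BBC3 and -0.063 to 0.40 for BAX, and the TP53INP1 difference of HCC1500 minus MDA-MB-175 from -0.26 to 0.016. Leaving out 1 culture also gave glucose changes of -0.17 to 0.0029 for TP53I3 in MDA-MB-175, -0.039 to 0.34 for TP53I3 in HCC1500, -0.035 to 0.069 for SESN1 in HCC1500, -0.0038 to 0.12 for MDM4 in ZR-75-30 and -0.024 to 0.11 for MDM4 in HCC1500. At low glucose it gave -0.0020 to 0.13 for SESN1 in ZR-75-30 minus MDA-MB-175 and -0.020 to 0.39 for FAS in HCC1500 minus ZR-75-30. The SESN1 response called as different between HCC1500 and ZR-75-30 was not called in 8 of 24 such fits.

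Among calls of all HCC1500 genes 36.4% were higher in the deposited scale, 48.9% with median-of-ratios factors, 47.8% by edgeR and 52.4% by DESeq2. The share higher at low glucose was 39.4% for ZR-75-30 minus MDA-MB-175 and 28.7% in CPM. For response differences, the share higher was 36.5% for HCC1500 minus MDA-MB-175 and 49.0% by edgeR, and 39.6% for HCC1500 minus ZR-75-30 and 50.1% by edgeR. FAS and, in ZR-75-30, TP53I3 rest on few reads, so that small changes in them were not detectable at this depth.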
